A study of Mus musculus with 12 samples.

Results

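The hepatic response to MgH2 was compared between 7 days and 1 day of treatment. MgH2 is a solid hydride that reacts with water in the stomach and releases molecular hydrogen (H2). The comparison rests on 6 of the 12 two-color arrays of the series, 3 arrays after 1 day and 3 after 7 days, which were paired by replicate number. On each array a pool of liver RNA from 3 male db/db mice given MgH2, labeled with Cy5, was hybridized together with a pool from 3 male db/db control mice, labeled with Cy3. The db/db mouse lacks a functional leptin receptor and becomes obese and diabetic, and treated and control mice alike carried this genotype. The labels give an age of 8 weeks and a daily gavage of 0.9 mg/kg at both times, and the control mice received Mg(OH)2 according to the methods. The members are the probes that the scanner software marked as well above background for Cy5 and for Cy3 on every one of the 6 arrays. There were 19174 such probes of the 39429 on the array, and 11861 of the 20017 genes with a symbol had at least 1 of them. The value followed throughout is the log2 ratio of Cy5 over Cy3, and its change is the mean of the 3 paired differences, 7 days minus 1 day, given with its standard error (SE). The dyes were never swapped, but a dye bias that is the same on every array cancels in this difference.

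The liver turns carbohydrate into fatty acids by lipogenesis, which the transcription factors SREBP-1c and ChREBP drive after feeding, and burns fatty acids in mitochondria and peroxisomes under the control of PPARα and the coactivator PGC-1α. It also degrades amino acids, detoxifies foreign compounds, folds large amounts of secreted protein in the endoplasmic reticulum, and houses Kupffer cells, the resident macrophages, in its sinusoids. In obese db/db mice lipogenesis and fat storage are known to be strongly active, and the expression of many liver genes differs between males and females through the pattern of growth hormone secretion.

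Between 51.84% and 53.52% of the spots were well above background in both channels on each of the 6 arrays, and 0 spots were saturated. The 14 hepatocyte markers matched on the array were measured, with *Alb* (albumin) among them, whereas *Adipoq*, *Lep* and *Plin1*, which define adipocytes, were not well above background on any of the 6 arrays. The ratios of the 1-day arrays correlated less well with each other (r = 0.222, 0.105 and 0.455 across probes, the lower values being those of replicate 1) than the ratios of the 7-day arrays (r = 0.476, 0.573 and 0.633). The 3 arrays of 1 day were on the same slide, replicates 1 and 2 of 7 days shared another slide, and replicate 3 of 7 days lay alone on yet another. Therefore no slide held arrays of both times, and slide and time cannot be told apart except through the 3-day arrays of the series. The pools are the only replication, so that P values measure the spread between pools of mice and not between single mice.

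Of the 19174 probes, 1327 (6.92%) had a higher and 1383 (7.21%) a lower ratio at 7 days than at 1 day, at an adjusted P under 0.05 by limma with the replicate number as a block. With each gene represented by its brightest probe, 908 of 11861 genes (7.66%) were higher and 886 (7.47%) were lower, so that 15.1% of the genes were called. The median size of the change among called probes was 0.36, corresponding to 1.285-fold, and 26 probes rose and 43 fell by more than 2-fold. For 2239 of the 2710 called probes the 3 values of 1 day did not overlap with the 3 of 7 days, against 28.8% of all probes tested (30.4% of the genes), and the fit that called them used the same values. At 764 of the called probes the ratio had one sign on all 3 arrays of 1 day and the opposite sign on all 3 arrays of 7 days.

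These calls depended on the way the arrays were fitted. Without the replicate block, 336 probes were higher and 349 lower, and with slide as a fixed block, 0 and 0 (910 and 1055 at an unadjusted P under 0.05). Leaving out replicate 1, 2 or 3 also gave 0 calls each time (2196 to 2486 higher and 2223 to 2280 lower probes at an unadjusted P under 0.05). The change kept its sign at all 2710 called probes, but this was fixed in advance, since all 3 pairs of each had the same sign. With slide as a fixed block, 2682 of the 2710 called probes (98.97%) kept their sign, the median change was 0.839 of the reported one, and the SE was 2.38 times as large. Of 172 genes named by a rule that takes the largest changes overall and in each gene list, 85 moved by more than 1.5 times with slide as a fixed block and 39 with another background correction (normexp) followed by loess normalization, and for the largest changes and the members described with their arrays such values are given beside them. The 3-day array on the slide of the 1-day arrays lay on the 7-day side of the 1-day mean at 90.7% of the called probes, and the 3-day arrays on the other slide at 97.8% and 97%, but these probes were chosen with the same 1-day arrays, so that part of this share is fixed by the choice. The plot of called probes by way of processing gives the count for each alternative.

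**Figure D1:**
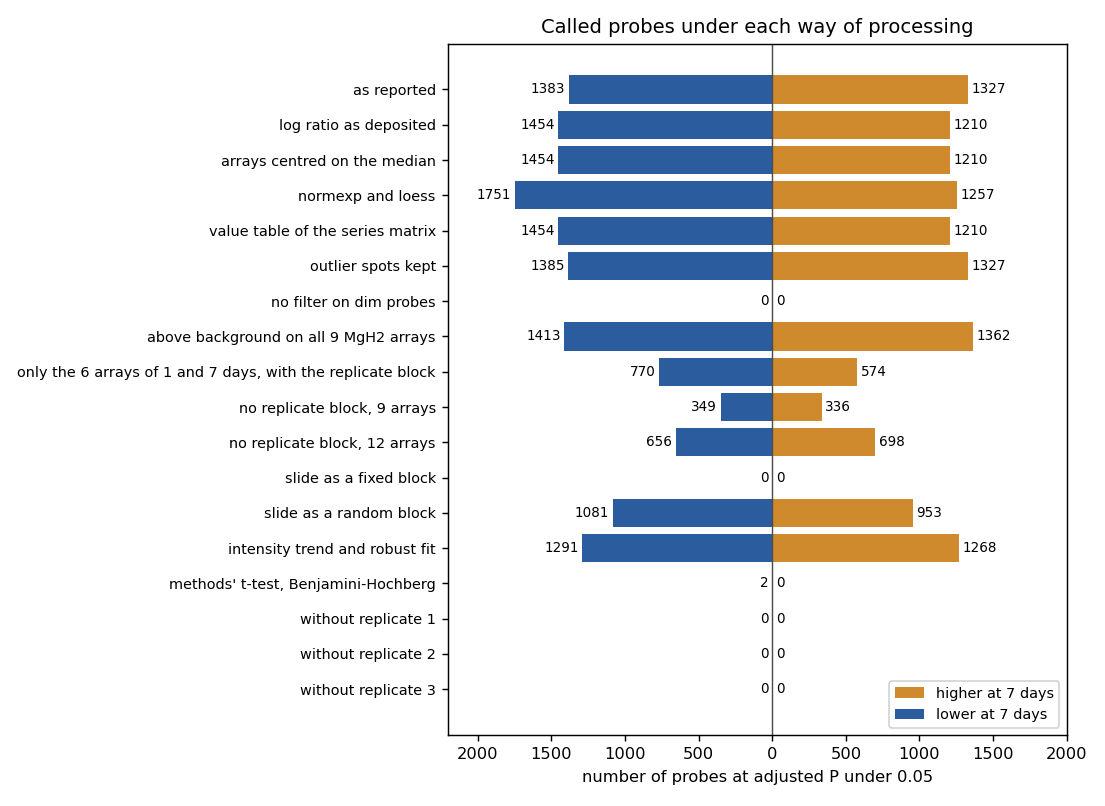
Number of probes with a higher (orange) and lower (blue) log2 ratio at 7 days than at 1 day, at an adjusted P under 0.05, for each way of processing (rows, the reported one at the top). The count was 1327 and 1383 as reported, close to this under the other scalings of the channels, and 0 and 0 without the filter on dim probes, with slide as a fixed block and without any one replicate number.

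Most of the change lay in the MgH2 channel. A single channel compares signals between arrays, so that array and slide effects do not cancel in it, and no slide held both times. Taken alone, the Cy5 signal differed between 7 days and 1 day at 2176 probes (553 higher, 2.88%, and 1623 lower, 8.46%) by limma at an adjusted P under 0.05, and the Cy3 signal of the control pools at 0 probes (3448 at an unadjusted P under 0.05). Leaving out replicate 1, 2 or 3 gave 0 calls for the Cy5 signal as well (3865 to 4727 probes at an unadjusted P under 0.05). Among probes called for the ratio, 2678 of 2710 had a change of the Cy5 signal in the same direction, and the median share of the ratio change found in the Cy5 signal was 0.965. Across probes the change of the ratio correlated with that of the Cy5 signal (r = 0.869) and little with that of the Cy3 signal (r = -0.114). The ratio is made of these signals and the probes were called from it, so that part of this match is fixed in advance. The Cy3 signals of the same replicate number were alike across times. Their deviations from the group mean correlated at r = 0.52 to 0.587 between 1 and 7 days, against r = -0.407 to -0.163 for different numbers, and the standard deviation across probes of the difference between 2 control pools was 0.166 to 0.213 log2 units for the same number and 0.242 to 0.326 for different numbers. The Cy5 signals showed no such pairing (r = 0.0409 to 0.0972 for the same number). The labels name the control pools by time, and whether any RNA was shared between times was not tested.

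**Figure D2:**
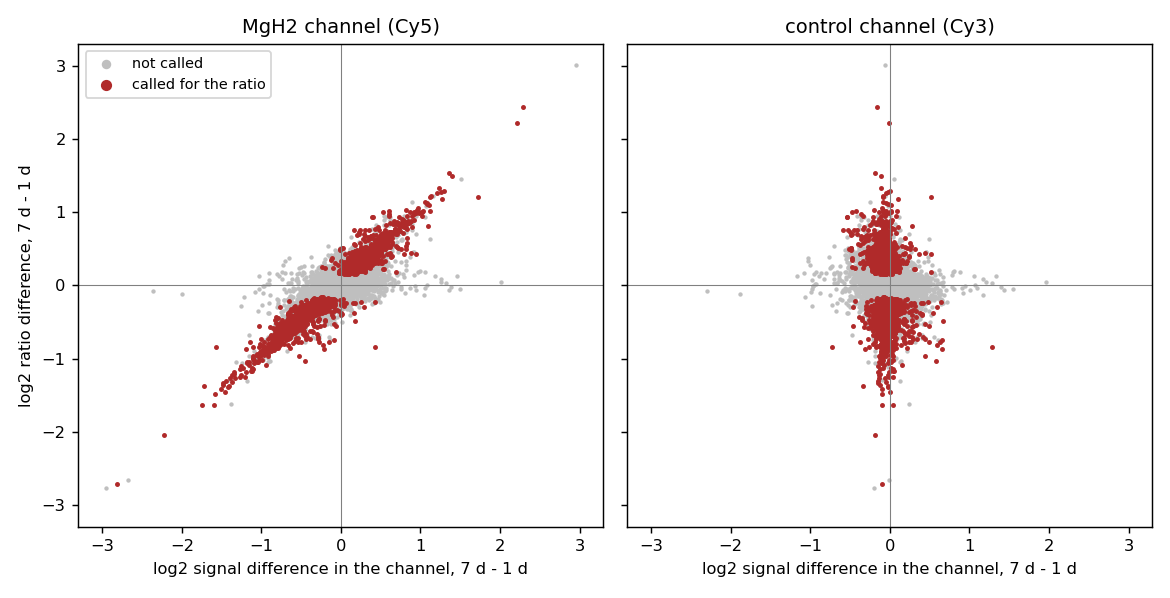
Change of the log2 ratio from 1 to 7 days (vertical axis) against the change of the log2 signal of the MgH2 channel (left) and of the control channel (right), for the 19174 probes tested. Red points are the 2710 called probes, which lie along the diagonal on the left (r = 0.869 over all probes) and around 0 on the right (r = -0.114). The ratio contains both signals, so that part of the match on the left is fixed in advance.

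Large rises were seen in genes of signaling, transport and bile acid synthesis. *Inhbb*, which encodes the activin βB subunit, had ratios of -0.081, 0.19 and -0.20 on the 1-day arrays and 1.37, 1.17 and 1.38 on the 7-day arrays, with a change of 1.34 ± 0.20. It was near 0 at 1 day and raised on every 7-day array, although the change was 0.467 with slide as a fixed block.

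*Slco1a4*, a sinusoidal uptake transporter for bile acids and steroid conjugates, changed from -0.65, -0.41 and -0.30 at 1 day to 0.68, 0.69 and 1.11 at 7 days (1.28 ± 0.14, adjusted P = 0.0119). *Thbd* (thrombomodulin, an endothelial anticoagulant receptor) changed from -0.56, -0.18 and -0.14 to 0.95, 0.63 and 1.18 (1.22 ± 0.14). *Cyp39a1*, an oxysterol 7α-hydroxylase of bile acid synthesis, changed from -0.46, -0.32 and -0.25 to 0.77, 0.80 and 1.03 (1.21 ± 0.086, adjusted P = 0.00773). In all of them the ratio was below 0 on every 1-day array and above 0 on every 7-day array. *Sorbs3* (vinexin, 1.11 ± 0.16) and *Ctdsp2* (a phosphatase, 1.04 ± 0.19) behaved likewise, but the other probes of *Ctdsp2* changed by 0.41 and 0.42 and were not called. With slide as a fixed block *Slco1a4*, *Sorbs3* and *Ctdsp2* changed by 0.708, 0.449 and 0.305, and with normexp and loess *Sorbs3* changed by 0.699.

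The remaining large rises were those of *Kiss1* (kisspeptin, 1.15 ± 0.22), *Odf2* (a centrosomal protein, 1.13 ± 0.22), *Hamp2* (a hepcidin paralog, 1.1 ± 0.18), *Pde6c* (a phosphodiesterase subunit, 1.03 ± 0.18) and *Cdk1* (the mitotic kinase, 1.02 ± 0.11). *Hamp2* and *Cdk1* rose in each of the 3 pairs while their groups overlapped, since the level of both varied strongly between replicate numbers. The ratio of *Hamp2* was 1.48, -0.65 and -1.93 on the 1-day arrays and 2.17, 0.31 and -0.28 on the 7-day arrays. *Kiss1*, *Odf2*, *Hamp2* and *Pde6c* changed by 0.764, 0.14, 0.387 and 0.311 with slide as a fixed block. *Cdk1*, *Odf2* and *Pde6c* changed by 0.196, 0.59 and 0.62 with normexp and loess, and the second *Odf2* probe by 0.51. *Hamp2* shares much of its sequence with *Hamp*, and the probe may not tell them apart.

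**Figure D3:**
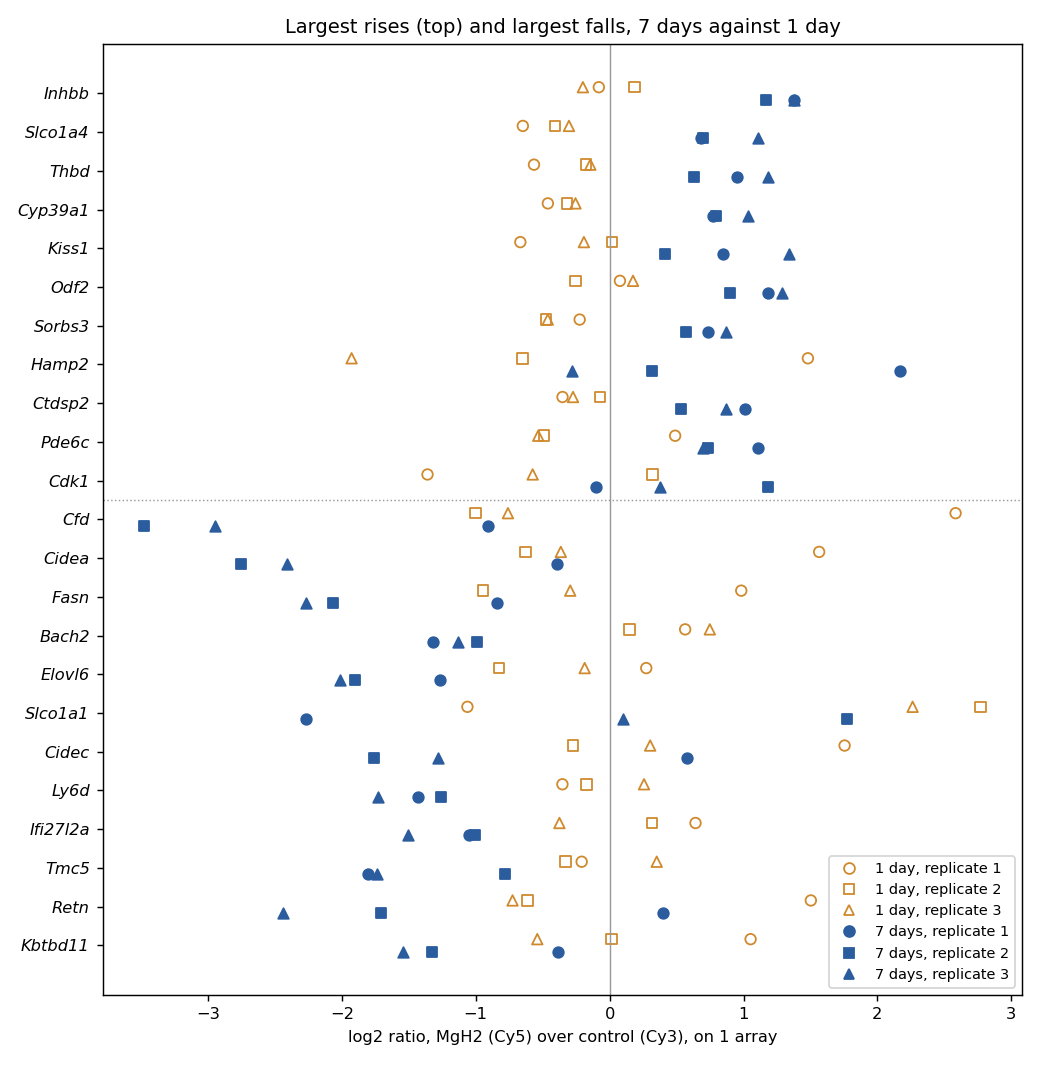
Log2 ratio of MgH2 over control on each of the 6 arrays for 11 of the 12 genes with the largest rise (above the dotted line) and the 12 with the largest fall. Open orange symbols are the 1-day arrays, filled blue symbols the 7-day arrays, and the shape gives the replicate number. *Slco1a4*, *Cyp39a1* and *Bach2* are fully separated, whereas *Cfd*, *Cidea* and *Fasn* overlap because replicate 1 is high at both times.

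The largest falls included several genes of fat synthesis and storage. *Cfd* (adipsin, a serine protease made in fat and in steatotic liver) had ratios of 2.58, -1.0 and -0.76 on the 1-day arrays and -0.91, -3.48 and -2.95 on the 7-day arrays, a change of -2.72 ± 0.38 (adjusted P = 0.0163) that was -1.70 with normexp and loess. *Cidea* and *Cidec*, which fuse lipid droplets, fell by 2.04 ± 0.14 and 1.41 ± 0.10, and the second *Cidec* probe by 1.15. With normexp and loess *Cidea* fell by 0.882. *Retn* (resistin) changed by -0.796 there. In the reported fit *Retn* fell by 1.30 ± 0.19. In all 4 genes the ratio of replicate 1 was the highest at both times, at 1 day above 1.5 on the log2 scale, and each of the 3 pairs fell.

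*Bach2*, a transcriptional repressor best known in lymphocytes, changed from 0.56, 0.15 and 0.75 at 1 day to -1.32, -0.99 and -1.14 at 7 days (-1.64 ± 0.15, adjusted P = 0.0108), with the opposite sign on every array of the other time. The change was -0.708 with normexp and loess. *Ly6d* (a surface antigen, -1.39 ± 0.18), *Ifi27l2a* (an interferon-induced gene, -1.38 ± 0.15) and *Tmc5* (a channel-like membrane protein, -1.38 ± 0.29) were lower on every 7-day than on every 1-day array. *Tmc5* changed by -0.494 with normexp and loess, and *Ly6d* by -0.906 with slide as a fixed block. *Kbtbd11* fell by 1.26 ± 0.14. *Slco1a1*, a male-biased uptake transporter, had ratios of -1.06, 2.77 and 2.26 on the 1-day arrays and -2.27, 1.77 and 0.10 on the 7-day arrays and fell by 1.46 ± 0.29, but it varied more between replicate numbers than between times, and the change was -0.899 with normexp and loess and -0.014 with slide as a fixed block.

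Of the 29 lipogenesis genes measured, 13 fell, 2 rose and 14 were not called, against 7.47% falling and 7.66% rising among all genes. The median change of the list was -0.43, compared with 0.020 over all genes, and it lay in the MgH2 channel (-0.47, control channel -0.045). The median ratio of the list was 0.21, -0.26 and -0.12 on the 1-day arrays and -0.15, -0.53 and -0.71 on the 7-day arrays, so that the groups overlapped while the 3 pairs fell. The list median lay between -0.526 and -0.235 when any one replicate number was left out and was -0.277 with slide as a fixed block. Without the replicate block, 4 of the 29 genes were called lower.

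*Fasn*, the fatty acid synthase, had ratios of 0.98, -0.95 and -0.29 on the 1-day arrays and -0.84, -2.07 and -2.27 on the 7-day arrays, a change of -1.64 ± 0.19 (adjusted P = 0.0122). *Elovl6*, which elongates palmitate, changed from 0.27, -0.83 and -0.19 to -1.27, -1.91 and -2.02 (-1.48 ± 0.17, adjusted P = 0.0122), with no overlap between the groups. *Scd1*, the stearoyl-CoA desaturase, changed from 0.21, -0.40 and -0.14 to -0.80, -1.12 and -1.70 (-1.09 ± 0.18). Enzymes of fatty acid synthesis, elongation and desaturation thus fell together. *Acaca* and *Acacb* (acetyl-CoA carboxylases) fell by 0.86 ± 0.15 and 0.67 ± 0.11, *Me1* (malic enzyme, which supplies NADPH) fell by 0.58 ± 0.059, and the acyltransferases *Mogat1* and *Gpam* fell by 0.76 ± 0.075 and 0.61 ± 0.053.

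The regulators moved in the same direction. *Srebf1*, which encodes SREBP-1, changed from 0.50, -0.10 and 0.11 to -0.79, -0.81 and -1.07 (-1.06 ± 0.14, adjusted P = 0.0148), and *Mlxipl*, which encodes ChREBP, fell by 0.73 ± 0.12. *Pklr*, the liver pyruvate kinase and a well-known target of ChREBP, changed from 0.36, -0.11 and 0.36 to -0.84, -0.93 and -1.30 (-1.23 ± 0.17). *Mid1ip1* and *Thrsp*, which activate acetyl-CoA carboxylase and lipogenesis, fell by 0.97 ± 0.19 and 0.86 ± 0.10. The exceptions that passed the test were *Fads1*, a desaturase of polyunsaturated fatty acids (0.37 ± 0.07), and *Dgat1*, the last acyltransferase of triglyceride synthesis (0.20 ± 0.05). With slide as a fixed block the changes of *Elovl6*, *Pklr* and *Scd1* were -0.766, -0.67 and -0.617.

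**Figure D4:**
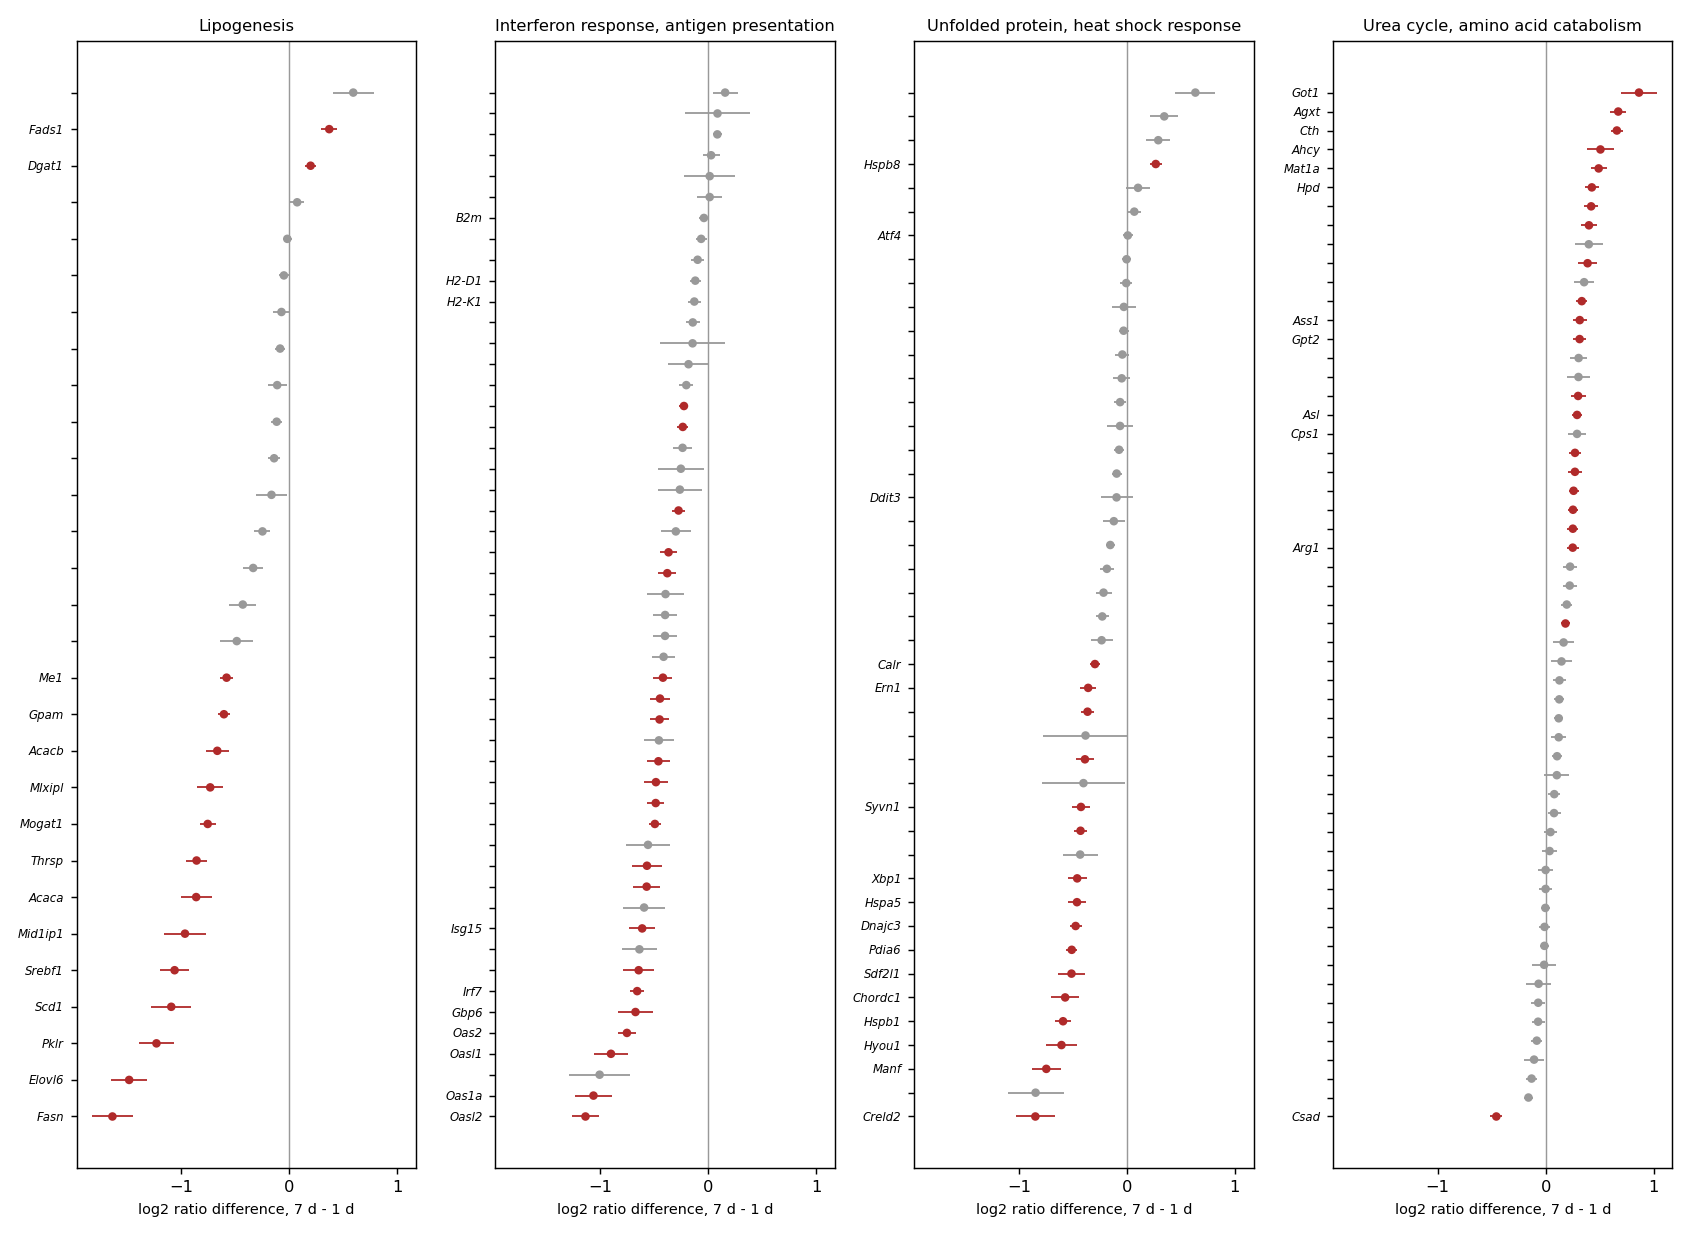
Change of the log2 ratio from 1 to 7 days (horizontal axis) with its SE (bars) for every measured gene of 4 lists. Names are given for the genes described in the text. Red points passed the test at an adjusted P under 0.05 and gray points did not. The called genes lie left of 0 in lipogenesis (13 of 15), in the interferon list (22 of 22) and in the protein folding list (16 of 17), and right of 0 among genes of amino acid catabolism (21 of 22).

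Among 25 genes of lipid droplets and triglyceride turnover, 6 rose (24%) and 5 fell (20%), against 7.66% and 7.47% of all genes. *Pnpla2*, the adipose triglyceride lipase, changed from 0.059, -0.060 and -0.19 to 0.65, 0.41 and 0.51 (0.59 ± 0.066, adjusted P = 0.012), and *Plin5*, a droplet coat protein that links droplets to mitochondria, from -0.53, 0.057 and 0.20 to 0.82, 0.82 and 0.93 (0.95 ± 0.12). Their groups did not overlap, and *Pnpla2* changed by 0.326 with slide as a fixed block. *Fitm1*, which promotes droplet formation, fell by 0.58 ± 0.058, and *Apob*, the structural protein of very low density lipoproteins, by 0.46 ± 0.071, although the second *Apob* probe changed by 0.02.

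In bulk liver RNA, fewer cells of a type and less RNA per cell cannot be told apart. Of 10 measured genes of a list drawn up as adipocyte markers, 6 fell (60%, against 7.47% of all genes) and 0 rose (median -0.73). Of the 10 changes 2 were above 0, the highest being 0.338, and were not called. The genes of this list that fell were *Cfd*, *Cidea*, *Cidec*, *Retn*, *Thrsp* and *Adipor2*, of which 1 was called without the replicate block. *Adipor2* changed by -0.112 with slide as a fixed block. For this list the median ratio was 1.19, -0.35 and -0.018 at 1 day and 0.10, -0.89 and -0.87 at 7 days. *Adipoq*, *Lep*, *Plin1* and *Ucp1* were not well above background on any of the 6 arrays. *Thrsp* is also a member of the lipogenesis list, and *Cidea* and *Cidec* of the droplet list. The fall of this list can therefore not be assigned to adipocytes, and the cells it came from were not tested.

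*Ppargc1a*, which encodes PGC-1α and was the transcript of main interest to the study, had ratios of -0.0099, 0.24 and -0.12 on the 1-day arrays and 0.97, 0.56 and 0.71 on the 7-day arrays. All 3 values at 7 days were above those at 1 day, and the change was 0.71 ± 0.16 (adjusted P = 0.0386), with a second probe at 1.54 ± 0.20. The adjusted P of *Ppargc1a* was 0.0635 in the fit of the 6 arrays alone, 0.0523 without the replicate block, and between 0.0677 and 0.215 when any one replicate number was left out, and its change was 0.183 with slide as a fixed block. *Ppargc1b* (PGC-1β) changed by 0.075 ± 0.17 and *Ppara* (the receptor PPARα) by -0.22 ± 0.076, and neither was called. *Fgf21*, a fasting hormone of the liver and a PPARα target, was not well above background on any of the 6 arrays. Of 35 coactivators and partners of PGC-1, 2 rose (*Ppargc1a* and *Nrf1*, a regulator of mitochondrial genes, 0.34 ± 0.044) and 2 fell (*Med1*, -0.48 ± 0.11, and the thyroid hormone receptor *Thrb*, -0.35 ± 0.074). Each count was 5.71% of the list, near the shares of all genes (7.66% and 7.47%). For *Med1* 2 of the 3 other probes changed in the opposite direction without being called. With slide as a fixed block *Med1* and *Thrb* changed by -0.167 and -0.147.

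Of 59 PPARα targets, 8 rose (13.6%) and 14 fell (23.7%), against 7.66% and 7.47% of all genes, and the median of the list was 0.026. *Cpt1a*, the gate of mitochondrial fatty acid oxidation, changed from 0.024, 0.13 and 0.022 to 0.40, 0.34 and 0.45 (0.34 ± 0.054, adjusted P = 0.0198), and *Acadl*, an acyl-CoA dehydrogenase, by 0.27 ± 0.061. They were the 2 called genes of 27 in mitochondrial oxidation (7.41% higher, near the share of all genes), whose median was 0.092. Of 27 genes of peroxisomal oxidation 3 fell (11.1%) and 2 rose (7.41%), with *Acaa1b*, a thiolase, changing by -0.31 ± 0.060. *Fabp1*, the fatty acid binding protein of liver, had ratios of 0.038, 0.13 and 0.15 on the 1-day arrays and -0.65, -0.79 and -0.56 on the 7-day arrays and changed by -0.77 ± 0.063 (adjusted P = 0.00844), the Cy3 signal changing by 0.49 and the Cy5 signal by -0.28.

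The study drew a scheme of 12 fatty acid genes from the 14-day arrays of this series. Of these, 3 rose at 7 days against 1 day (25%, against 7.66% of all genes), 2 fell (16.7%, against 7.47%) and 7 were not called. The risers were *Cpt1a*, the ω-hydroxylase *Cyp4a32* (0.32 ± 0.071) and the aldehyde dehydrogenase *Aldh1a1* (0.23 ± 0.050), and *Acaa1b* was among those that fell. With slide as a fixed block these risers changed by 0.232, 0.158 and 0.0972. The median of the 12 genes was 0.221, and 0.0528 with slide as a fixed block. Without the replicate block 1 of them was called higher and 0 lower. *Cyp4a10* and *Cyp4a31*, close relatives of *Cyp4a32*, changed by 0.42 ± 0.11 and 0.41 ± 0.11 without passing the test, although a further *Cyp4a10* probe (0.34) was called higher at an adjusted P of 0.047, and the probes of these paralogs may share signal. *Cyp4a10* and *Cyp4a31* changed by 0.109 and 0.0619 with slide as a fixed block. *Aldh3a2* changed by -0.23 ± 0.062, *Aldh1l1* by 0.25 ± 0.087, *Eci1* by 0.026 ± 0.055, *Eci2* by 0.21 ± 0.061 and *Acaa1a* by -0.074 ± 0.052. The largest of these 12 changes was that of *Cyp4a10*, and they were small beside those of the lipogenic enzymes. Of 10 ketone body genes 2 fell (20%, against 7.47% of all genes) and 0 rose. Those that fell were *Oxct1* (-0.60 ± 0.12) and *Aacs* (-0.72 ± 0.17), which use ketone bodies, while no gene of ketone synthesis was called. *Aacs* changed by -0.298 with slide as a fixed block, and *Oxct1* by -0.279 with normexp and loess. Of 27 cholesterol genes 1 rose (3.7%) and 2 fell (7.41%), against 7.66% and 7.47% of all genes. *Stard4*, a sterol carrier controlled by SREBP-2, was among those that fell (-0.69 ± 0.055), and the median of the list was 0.13. This median turned to -0.18 with slide as a fixed block and was 0.0709 without replicate 1.

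Of 55 measured genes of amino acid catabolism, 21 rose, 1 fell and 33 were not called, against 7.66% rising among all genes, with a median of 0.20. On the arrays, the list median was -0.13, -0.18 and -0.067 at 1 day and 0.040, 0.066 and 0.038 at 7 days, without overlap. It remained at 0.213 with slide as a fixed block, and 8 genes were called higher without the replicate block. *Agxt*, which detoxifies glyoxylate, changed from -0.49, -0.36 and -0.47 to 0.19, 0.22 and 0.30 (0.67 ± 0.074, adjusted P = 0.012), and *Cth*, the cystathionine γ-lyase, from -0.70, -0.31 and -0.44 to 0.0075, 0.34 and 0.19 (0.66 ± 0.053, adjusted P = 0.00844). *Agxt* changed by 0.363 with slide as a fixed block. *Got1*, the cytosolic aspartate aminotransferase, rose by 0.86 ± 0.17. *Mat1a* and *Ahcy* of the methionine cycle rose by 0.49 ± 0.075 and 0.51 ± 0.12, and *Hpd*, which degrades tyrosine, by 0.43 ± 0.063. The 1 gene that fell was *Csad* (-0.46 ± 0.055), which makes taurine from cysteine. Among the enzymes of the urea cycle, *Ass1*, *Asl* and *Arg1* rose by 0.32, 0.29 and 0.25, and *Cps1* (0.29 ± 0.084) was not called.

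Of 31 genes of gluconeogenesis and fasting, 6 rose (19.4%) and 1 fell (3.23%), against 7.66% and 7.47% of all genes (median 0.12). *Pck1*, the rate-limiting carboxykinase, changed from -0.28, -0.12 and -0.21 to 0.27, 0.25 and 0.33 (0.49 ± 0.065, adjusted P = 0.0154). Its Cy5 signal changed by 0.26, which was not called, and its Cy3 signal by -0.23. *Crtc2*, a CREB coactivator, changed from -0.082, -0.021 and -0.20 to 0.42, 0.30 and 0.34 (0.45 ± 0.084). *Angptl4*, an inhibitor of lipoprotein lipase, rose by 0.50 ± 0.11 and *Gpt2*, the mitochondrial alanine aminotransferase, by 0.32 ± 0.058. *Ppargc1a* and *Got1*, given above, are the other risers. *Crtc2* changed by 0.106 with slide as a fixed block. In glycolysis *Pklr*, *Pfkfb1* (-0.52 ± 0.13) and *Khk* (-0.30 ± 0.067) fell, and *Pfkfb2* (0.61 ± 0.15) and *Tpi1* (0.25 ± 0.042) rose, of 30 genes. These were 10% and 6.67% of the list, near the shares of all genes. *Pfkfb1* and *Khk* changed by -0.167 and -0.0863 with slide as a fixed block, and *Pfkfb2* by 0.25 with normexp and loess.

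Genes of the interferon response fell. Of 50 measured, 22 fell (44%, against 7.47% of all genes) and 0 rose. The median change was -0.40, and 44 of the 50 changes were below 0, against 5412 of 11861 over all genes. The median ratio of the list was 0.011, -0.067 and -0.27 at 1 day and -0.41, -0.32 and -0.74 at 7 days. It was -0.230 with slide as a fixed block, and 5 genes were called lower without the replicate block. The oligoadenylate synthetase family, which senses double-stranded RNA, led the list. *Oasl2* had ratios of 0.58, 0.48 and -0.25 on the 1-day arrays and -0.67, -0.81 and -1.11 on the 7-day arrays (-1.14 ± 0.13, adjusted P = 0.012), *Oas1a* changed from 0.34, 0.0061 and -0.47 to -1.02, -0.87 and -1.43 (-1.06 ± 0.17), and *Oasl1* and *Oas2* fell by 0.90 ± 0.15 and 0.75 ± 0.082. With normexp and loess *Oasl2*, *Oas1a* and *Oas2* changed by -0.482, -0.705 and -0.25. *Irf7*, the master regulator of type I interferon genes, changed from 0.027, -0.30 and -0.47 to -0.56, -0.97 and -1.18 (-0.66 ± 0.063), and *Gbp6*, a guanylate-binding GTPase, by -0.67 ± 0.16. The 15 measured genes of antigen presentation were not called, among them *B2m*, *H2-K1* and *H2-D1* with changes of -0.039, -0.13 and -0.12.

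Most markers of Kupffer cells and other macrophages moved with the interferon genes. Of 16 measured, 7 fell (43.8%, against 7.47% of all genes) and 0 rose, with a median change of -0.26. The changes of 3 markers were above 0, the largest being 0.911, and were not called. The median ratio of the list ran from -0.25 to -0.019 at 1 day and from -0.42 to -0.26 at 7 days, without overlap. Of the 7 calls 0 were left without the replicate block and 3 in the fit of the 6 arrays alone, while the median was -0.338 with slide as a fixed block. *Adgre1* (F4/80, -0.46 ± 0.094), *Clec4f* (the Kupffer cell lectin, -0.38 ± 0.071), *Vsig4* (-0.31 ± 0.046) and *Csf1r* (-0.28 ± 0.064) were among the genes that fell. The other *Csf1r* probes changed by -0.13 and -0.29 and were not called. Of 12 listed neutrophil markers 5 were measured and 2 fell (*S100a8*, -0.70 ± 0.13, and *Camp*, -0.50 ± 0.067), and lymphocyte markers fell at 0 of 7 genes. *S100a8* and *Camp* changed by -0.365 and -0.288 with normexp and loess, and by -1.06 and -0.776 with slide as a fixed block. The second *Camp* probe (-0.29) was not called. Without the replicate block 0 neutrophil markers were called. The part of these cells in the fall of the interferon genes was not tested.

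Since these genes moved together, the promoters (250 bases before to 50 after the transcription start, RefSeq, GRCm38.p6) were searched on both strands for the interferon-stimulated response element, taken as GAAA and GAAA separated by any 2 bases. The motif was present in the promoters of 3.99% of 27025 genes, in 3.68% of the tested genes with a promoter and in 16 of 38 (42.1%) of the interferon list. Within the list it was found in 8 of 16 called and 8 of 22 uncalled genes. The promoters of *Isg15*, a ubiquitin-like interferon-induced gene chosen after its values were seen (-0.041, -0.0099 and -0.46 at 1 day, -0.60, -0.57 and -1.16 at 7 days, -0.61 ± 0.12), and of *Oas1a* are shown because they hold 3 and 2 overlapping copies. Capitals mark the stretch of the overlapping matches, and both are written along the minus strand, 5′ to 3′, from chr4:156200769-156201068 and chr5:120907476-120907775. The match is a description of the letters and not evidence of binding.
Isg15: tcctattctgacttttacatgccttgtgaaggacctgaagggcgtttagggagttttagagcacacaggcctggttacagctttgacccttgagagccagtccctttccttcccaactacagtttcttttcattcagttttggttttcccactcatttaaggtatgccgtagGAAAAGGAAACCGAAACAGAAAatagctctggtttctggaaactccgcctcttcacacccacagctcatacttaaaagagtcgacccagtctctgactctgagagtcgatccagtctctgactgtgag
Oas1a: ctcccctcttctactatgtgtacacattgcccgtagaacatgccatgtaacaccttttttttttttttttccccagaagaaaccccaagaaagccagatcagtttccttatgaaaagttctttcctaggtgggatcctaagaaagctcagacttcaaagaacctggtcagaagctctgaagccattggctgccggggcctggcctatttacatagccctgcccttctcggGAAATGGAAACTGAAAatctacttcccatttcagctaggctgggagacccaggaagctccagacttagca

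Genes of protein folding fell as well. Of 44 genes of the unfolded protein and heat shock response, 16 fell (36.4%, against 7.47% of all genes) and 1 rose (*Hspb8*, a small heat shock protein, 0.27 ± 0.054), with a median change of -0.22. The median ratio of the list was -0.040, 0.080 and 0.12 at 1 day and -0.26, -0.25 and -0.12 at 7 days, without overlap, but with slide as a fixed block the median change was -0.0681. *Creld2* and *Manf*, secreted proteins induced by endoplasmic reticulum stress, changed from -0.33, 0.45 and 0.28 to -0.91, -0.79 and -0.43 (-0.85 ± 0.18) and from -0.30, 0.23 and 0.30 to -0.73, -0.77 and -0.51 (-0.75 ± 0.14). Without the replicate block 3 genes of the list were called lower. The chaperone *Hyou1* fell by 0.61 ± 0.14 and *Sdf2l1* by 0.51 ± 0.13. *Creld2* and *Hyou1* changed by -0.428 and -0.167 with slide as a fixed block. *Hspa5* (BiP, the main chaperone of the endoplasmic reticulum) changed from -0.018, 0.34 and 0.39 to -0.28, -0.27 and -0.13 (-0.46 ± 0.087), *Xbp1*, a transcription factor of the response, by -0.46 ± 0.086, and *Ern1*, the sensor IRE1α, by -0.36 ± 0.076. Cytosolic heat shock proteins were represented by *Hspb1* (-0.59 ± 0.071) and *Chordc1*, a partner of HSP90, which changed by -0.57 ± 0.13 and by 0.0201 with slide as a fixed block. *Atf4* and *Ddit3* of the integrated stress response changed by 0.0088 and -0.10 and were not called.

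The endoplasmic reticulum stress element, taken as CCAAT and CCACG separated by any 9 bases, was present in 0.137% of all promoters, in 0.19% of the tested genes with a promoter and in 8 of 38 (21.1%) of the list, namely in 6 of 13 genes called lower (*Hspa5*, *Calr*, *Pdia6*, *Dnajc3*, *Creld2* and *Syvn1*) and in 2 of 24 uncalled genes. The promoters of *Hspa5* and *Creld2*, the former chosen after its values were seen, are shown with the element in capitals. Both are written along the plus strand, from chr2:34771840-34772139 and chr15:88819396-88819695, and the element of *Creld2* reads in reverse complement. The protein folding list also holds cytosolic heat shock genes, so that the split between called and uncalled genes depends in part on its make-up. A sterol regulatory element, taken as TCAC and CCAC separated by any 1 base, was found in 1.46% of the tested genes with a promoter, in 1 of 24 lipogenesis genes (*Mlxipl*) and in 1 of the 12 that were called lower. These matches describe the letters and are not evidence of binding.
Hspa5: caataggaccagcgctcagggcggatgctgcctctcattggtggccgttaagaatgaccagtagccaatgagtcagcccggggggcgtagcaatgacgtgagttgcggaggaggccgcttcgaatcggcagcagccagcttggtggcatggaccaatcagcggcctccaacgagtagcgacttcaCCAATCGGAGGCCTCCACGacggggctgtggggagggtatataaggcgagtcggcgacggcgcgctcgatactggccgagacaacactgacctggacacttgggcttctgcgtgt
Creld2: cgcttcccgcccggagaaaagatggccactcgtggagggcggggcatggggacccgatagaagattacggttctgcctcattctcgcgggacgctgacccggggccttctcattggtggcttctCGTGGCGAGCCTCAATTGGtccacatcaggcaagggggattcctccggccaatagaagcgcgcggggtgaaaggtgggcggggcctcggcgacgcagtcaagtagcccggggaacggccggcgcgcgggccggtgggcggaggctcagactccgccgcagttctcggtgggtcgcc

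Sex-biased liver genes moved in opposite directions in these male mice. Of 31 female-biased genes 8 rose (25.8%) and 1 fell (median 0.39). Of 19 male-biased genes 0 rose and 9 fell (47.4%, median -0.41). Among all genes 7.66% rose and 7.47% fell. The median ratio of the female-biased list was 0.10, -0.48 and -0.34 at 1 day and 0.55, -0.015 and -0.25 at 7 days, and that of the male-biased list -0.19, 0.37 and 0.30 and -0.46, 0.094 and -0.0081. Replicate 1 thus stood apart at both times, the groups overlapped, and the pairs carried the change. With slide as a fixed block the medians were 0.0189 and 0.0865, so that the male-biased list changed sign. Without the replicate block 0 male-biased genes were called lower and 3 female-biased genes higher.

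Besides *Hamp2*, the female-biased risers included the steroid 15α-hydroxylase *Cyp2a4* (0.95 ± 0.14), the estrogen sulfotransferase *Sult1e1* (0.83 ± 0.093), the organic anion transporters *Slc22a27* (0.94 ± 0.24) and *Slc22a26* (0.93 ± 0.18), *Prom1* (0.86 ± 0.22) and the cytochrome *Cyp2g1* (0.44 ± 0.075). Of the male-biased genes, *C6* and *C8a*, which encode terminal complement components, fell by 1.01 ± 0.19 and 0.61 ± 0.11, *Nudt7*, a peroxisomal coenzyme A hydrolase, by 0.87 ± 0.20, and *Mup3*, a major urinary protein, by 0.77 ± 0.19. With slide as a fixed block *C6*, *C8a*, *Nudt7* and *Mup3* changed by -0.0611, -0.209, -0.098 and 0.0915. *Cyp2a4*, *Slc22a27*, *Slc22a26* and *Prom1* changed by 0.475, 0.133, 0.398 and 0.286 there. *Cyp2a4*, *Mup3* and the *Slc22a* genes belong to families of near-identical copies, which these probes may not separate. Of 21 genes of the growth hormone and IGF axis 0 were called, and the largest change was that of *Cish*, a feedback inhibitor of growth hormone signaling, with ratios of 1.20, 0.80 and 0.40 on the 1-day arrays and -1.61, -0.91 and 1.03 on the 7-day arrays (-1.30 ± 0.82, and -0.0109 with slide as a fixed block).

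Detoxifying enzymes changed in both directions. Of 40 drug metabolizing cytochromes and their reductase, 11 rose (27.5%) and 7 fell (17.5%). Of 47 conjugating enzymes, 12 rose (25.5%) and 4 fell (8.51%). Among all genes 7.66% rose and 7.47% fell. The dioxin-inducible *Cyp1a2* and *Cyp1a1* changed by 0.54 ± 0.11 and 0.52 ± 0.12, the latter by -0.00534 with normexp and loess. *Cyp2d40* fell from 0.23, 0.14 and 0.061 to -0.60, -0.84 and -0.77 (-0.88 ± 0.10), and *Cyp2j5* fell by 0.65 ± 0.064. *Cyp2d40* changed by -0.49 with slide as a fixed block. *Por*, the electron donor of the cytochromes, rose by 0.57 ± 0.068. In bile acid metabolism 5 of 34 genes rose (14.7%) and 3 fell (8.82%, near the share of all genes). *Akr1d1*, a steroid 5β-reductase, changed from -0.23, -0.21 and -0.11 to 0.24, 0.32 and 0.31 (0.47 ± 0.051, adjusted P = 0.0119), and *Cyp8b1*, the 12α-hydroxylase, by 0.53 ± 0.13.

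Of 47 genes of antioxidant defense, 7 rose (14.9%) and 5 fell (10.6%), against 7.66% and 7.47% of all genes, with a median of 0.0077. *Hmox1*, the heme oxygenase, changed from -0.30, -0.30 and -0.23 to 0.79, 0.42 and 0.46 (0.84 ± 0.14, adjusted P = 0.0224), and *Nqo1*, a quinone reductase, from -0.30, -0.35 and -0.23 to 0.31, 0.33 and 0.040 (0.52 ± 0.091). *Gsta1* and *Gsta2*, glutathione transferases with close sequences, rose by 0.86 ± 0.19 and 0.59 ± 0.13. All of them were below 0 on every 1-day array and above 0 on every 7-day array. *Mt1*, a metal-binding metallothionein, changed from 0.078, 0.16 and -0.28 to 1.14, 1.21 and 0.61 (1.01 ± 0.16), the Cy5 signal rising by 0.53 and the Cy3 signal changing by -0.48. *Hmox1* and *Mt1* changed by 0.488 and 0.422 with slide as a fixed block. *Keap1* and *Mgst1* were among those that fell (-0.31 and -0.28).

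Of 23 hepatokines 4 rose (17.4%) and 2 fell (8.7%), against 7.66% and 7.47% of all genes. *Gdf15*, a stress-induced cytokine, fell by 0.97 ± 0.21 and *Inhba*, the activin βA subunit, by 0.67 ± 0.12, opposite to *Inhbb*. *Egr1*, an immediate early transcription factor, had ratios of 1.59, 0.90 and -0.17 on the 1-day arrays and 0.085, -0.59 and -0.84 on the 7-day arrays (-1.22 ± 0.21). *Klf4* rose by 0.95 ± 0.20, while of 25 immediate early genes 2 rose (8%) and 5 fell (20%). Of 26 collagen and matrix genes 6 fell (23.1%) and 1 rose (3.85%), with *Col1a1* changing from 0.27, 0.32 and 0.16 to -0.048, -0.63 and -0.58 (-0.67 ± 0.12) and *Col3a1* by -0.46 ± 0.066. These are also markers of stellate cells and fibroblasts, of which 3 of 14 fell, the third being *Lrat*, which stores retinol (-0.60 ± 0.10). Of 15 endothelial markers 2 rose and 2 fell (13.3% each), and 9 changes were below 0 (median -0.088). *Lyve1*, a hyaluronan receptor of sinusoids, rose from 0.040, -0.045 and -0.19 to 0.79, 0.56 and 0.61 (0.72 ± 0.10). The 2 that fell were *Stab1* (-0.301) and *Oit3* (-0.33), which changed by -0.067 and 0.00166 with slide as a fixed block. *Inhba*, *Lrat* and *Lyve1* changed by -0.253, -0.188 and 0.29 with slide as a fixed block. *Alb* and *Cyp2e1*, hepatocyte markers, rose by 0.34 ± 0.051 and 0.32 ± 0.075, and the other 12 measured hepatocyte markers were not called.

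**Figure D5:**
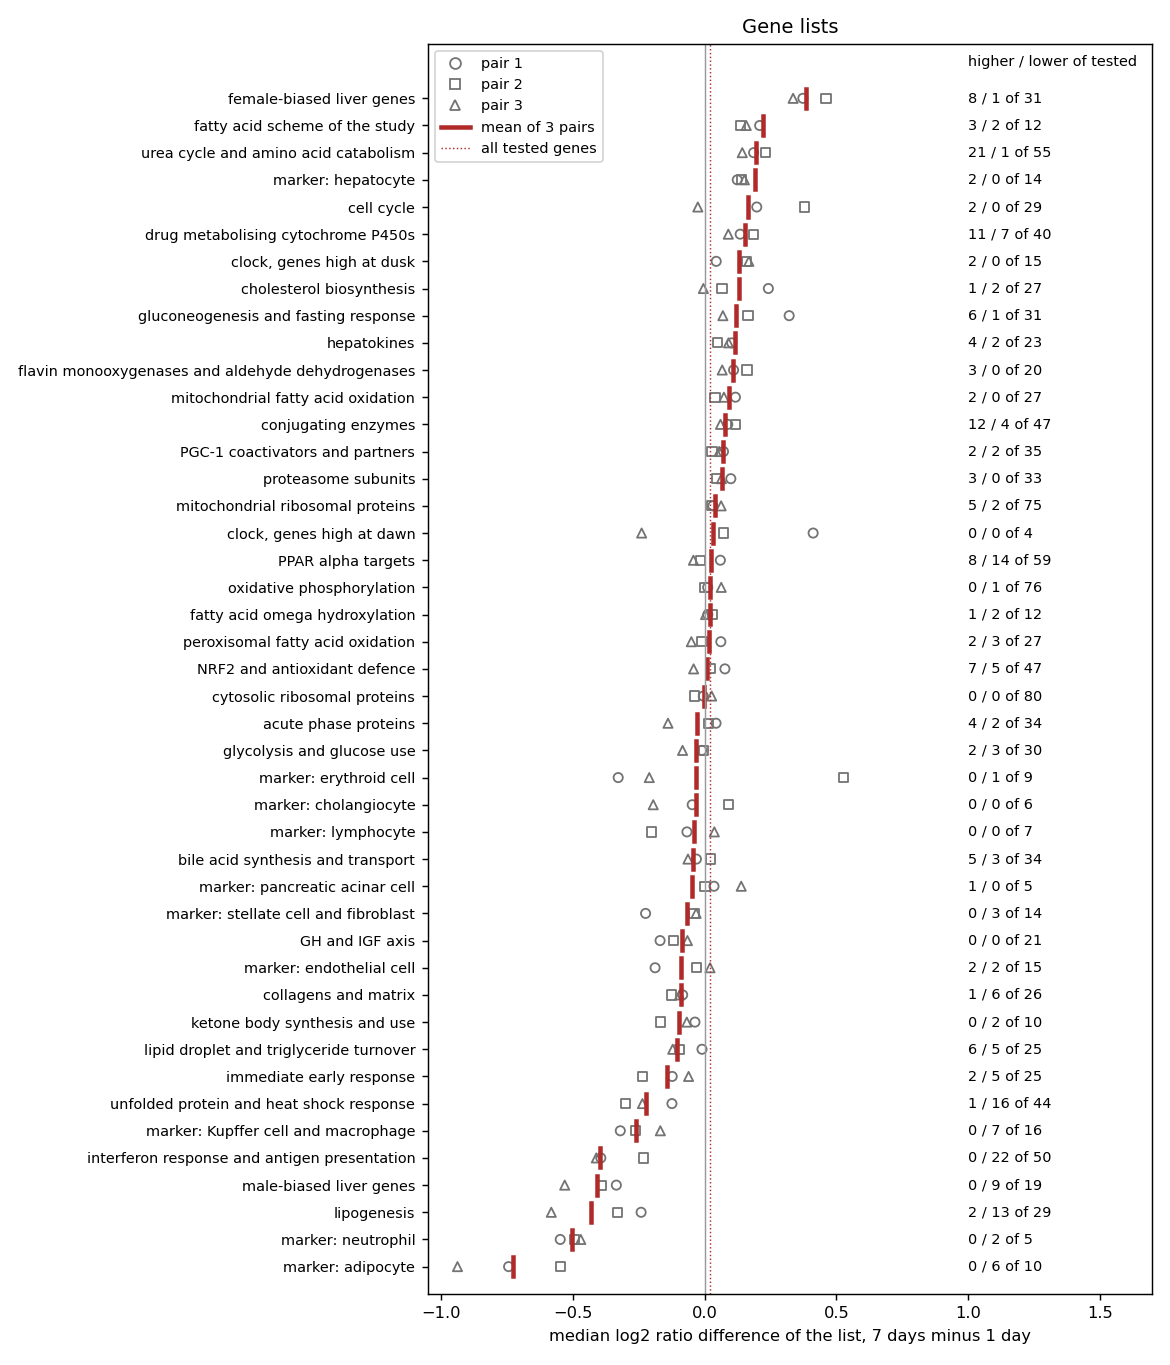
Median change of the log2 ratio from 1 to 7 days (horizontal axis) for each of the 44 gene lists, ordered by size. Red bars give the median over genes of the mean of the 3 pairs, open symbols the median within each pair, the dotted line the median of all tested genes (0.0201), and the column at the right the number of called genes. Adipocyte and neutrophil markers, lipogenesis, male-biased and interferon lists lie furthest to the left, female-biased genes furthest to the right.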

How the data were processed

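The authors scanned two-color arrays and deposited the output of Agilent Feature Extraction (10.10.1.1 for the MgH2 arrays by the file headers, 10.10.1 by the submitters' processing notes). The deposited intensity values are background-subtracted and dye-normalized (linear and lowess) within each array, and raw median intensities of spots and local background were deposited as well. The deposited LogRatio is the log10 of Cy5 over Cy3, and the deposited value table holds the same ratios as log2 (largest difference 1.39e-06). Each channel's processed signal was divided here by its total over the 43020 non-control spots, since the methods normalize by total intensity. Spots marked as non-uniform or as population outliers were left out, and spots of a probe were averaged.

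The log2 ratios of 9 MgH2 arrays (1, 3 and 7 days) were fitted with limma 3.58.1 in R 4.3.3, with time and replicate number as factors, so that the 3-day arrays add only to the estimate of the spread. The contrast 7 days minus 1 day was tested (two-sided), and P values were adjusted by Benjamini-Hochberg over the 19174 probes whose Cy5 and Cy3 signals were both marked well above background on each of the 6 arrays, with calls at an adjusted P under 0.05. Replicate numbers pair the arrays, since the deviations of same-numbered ratios from their group means correlated in all 9 pairs (r = 0.369 to 0.639), which the Cy3 signals shared (r = 0.322 to 0.648) and the Cy5 signals did not (r = -0.29 to 0.171). On simulated data with 200 of 19165 probes changed 1.5-fold, the fit recovered 71%, and 8.39% of its calls were false. The number of arrays limits the precision. Set tests were not used.

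The members, the 44 gene lists, the motifs and the sequences shown were chosen with earlier results of these data known. Named genes are the 12 largest rises and falls among called genes with 3 pairs of one sign, genes central to the study, and in each list up to 6 called members, or its largest change where none was called, and some genes that meet this rule are not reported here. *Acaca*, *Acacb*, *Mogat1*, *Gpam*, *Mlxipl*, *Fads1*, *Dgat1*, *Hpd*, *Ass1*, *Asl*, *Arg1*, *Cps1*, *B2m*, *H2-K1*, *H2-D1*, *Isg15*, *Hspb8*, *Hspa5*, *Xbp1*, *Ern1*, *Atf4*, *Ddit3*, *Calr*, *Pdia6*, *Dnajc3*, *Syvn1*, *Keap1*, *Mgst1* and *Cyp2g1* were named after their values were seen. Of the listed symbols 3 matched no gene and 9 were renamed through RefSeq synonyms. Promoter sequences are from RefSeq (GRCm38.p6), with 9482 of 11861 tested genes matched by symbol. Figures were drawn with matplotlib.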

Additional observations from a re-analysis of the deposited data

Results flagged for a closer look

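The ratio of MgH2 over control differed between 7 days and 1 day, by limma with the replicate block, at 1327 probes that were higher and 1383 that were lower. At 764 of these the ratio had opposite signs on every array of the 2 times. Among the genes with the largest changes, examples with opposite signs on every array were *Slco1a4* (1.281), *Thbd* (1.217), *Cyp39a1* (1.212), *Sorbs3* (1.112), *Ctdsp2* (1.035) and *Bach2* (-1.635), given as the change of the log2 ratio. With slide as a fixed block *Slco1a4*, *Sorbs3* and *Ctdsp2* changed by 0.708, 0.449 and 0.305, with normexp and loess *Bach2* changed by -0.708, and the other *Ctdsp2* probes (0.41 and 0.42) were not called. The slide differed between the times as well, and its part in these changes cannot be told apart from that of time.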

How the results depend on the processing

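The counts of 1327 higher and 1383 lower probes stayed within 1.5 times under the scaling as deposited (1210 and 1454), centring of the arrays on the median, normexp with loess (1257 and 1751), the deposited value table, the keeping of outlier spots, the filter over 9 arrays, slide as a random block (953 and 1081) and an intensity trend with robust fit. They fell to 574 and 770 in the fit of the 6 arrays alone, and to 0 and 0 without the filter on dim probes (4396 and 2817 at an unadjusted P under 0.05) and with slide as a fixed block. Without the replicate block there were 336 and 349 in the fit of 9 arrays and 698 and 656 in the fit of 12. The methods' t-test on the same ratios gave 0 and 2 after Benjamini-Hochberg adjustment and 2204 and 1663 before it. Leaving out any one replicate number gave 0 calls in either direction, for the ratio and for the Cy5 signal (0 to 0 in each case). The control channel gave 0 calls under each alternative tried.

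Among called genes named by the rule, the changes of *Chordc1* (0.0201), *Mup3* (0.0915), *Rbp4* (-0.00763) and *Oit3* (0.00166) reversed with slide as a fixed block, and that of *Cyp1a1* (-0.00534) with normexp and loess. Among genes that were not called, *Onecut1* went from -0.971 to 1.44 and *Ppargc1b* from 0.0749 to -0.406 with slide as a fixed block, and *Eci1* from 0.026 to -0.013 with normexp and loess. The cause was not tested. Of the 172 named genes, 14 that were not called stayed so and the other 158 lost their call when any one replicate number was left out.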

Other observations

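Several large gene groups had few calls between 1 and 7 days. Of 80 cytosolic ribosomal protein genes 0 were called (median -0.0036, changes from -0.29 to 0.13), the largest being *Rpl22l1* (-0.29 ± 0.075). Of 76 genes of oxidative phosphorylation 1 fell, *Uqcr11* of complex III (-0.24 ± 0.052), with a median of 0.021. Of 75 mitochondrial ribosomal protein genes 5 rose (6.67%), with *Mrpl47* (0.34 ± 0.063) in front, and 2 fell (2.67%), *Mrps6* (-0.41 ± 0.090) and *Mrpl35* (-0.35 ± 0.075). With slide as a fixed block *Mrps6* and *Mrpl35* changed by -0.0353 and -0.519. Of 33 proteasome subunits 3 rose by a small amount (9.09%, against 7.66% of all genes), *Adrm1* (0.25 ± 0.050), *Psmc1* (0.19 ± 0.046) and *Psmd3* (0.17 ± 0.043). Of the 33 changes 30 were above 0, against 6449 of 11861 over all genes.

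*Arntl*, the core activator of the clock, had ratios of -1.71, 0.61 and 0.74 on the 1-day arrays and -0.0067, 1.22 and 0.90 on the 7-day arrays (0.83 ± 0.29, not called). Its change was 0.531 with normexp and loess and 0.386 without replicate 1. Of 15 clock genes high at dusk 2 rose (13.3%, against 7.66% of all genes) and 0 fell. The risers were *Usp2* (0.55 ± 0.078) and *Por* (0.57 ± 0.068), which is also a gene of drug metabolism. Without the replicate block 0 genes of the dusk list were called higher. The median of the list was 0.132, and -0.0265 with slide as a fixed block, where *Usp2* changed by 0.229. Replicate 1 had a median ratio of 0.40 in this list at 1 day and 0.43 at 7 days, against -0.14 and -0.23 at 1 day and -0.039 and -0.030 at 7 days in replicates 2 and 3. Of 9 erythroid genes *Alas2*, the first enzyme of heme synthesis in red cells, changed by -0.84 ± 0.12, and of 5 measured genes of pancreatic acinar cells *Amy2a5* rose by 0.25 ± 0.057. *Alas2* changed by -0.339 with slide as a fixed block.

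The median ratio at 3 days was -0.47 for lipogenesis, -0.43 for the interferon list and 0.0019 for amino acid catabolism. After 14 days of H2-water, another treatment, it was 0.13, -0.074 and -0.042.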
